A study of Mus musculus with 6 samples.

Results

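The hormone genes of the hypothalamus and pituitary were taken by symbol from the table of read counts. All 10 symbols looked for, Avp, Oxt, Pmch, Hcrt, Trh, Pomc, Gh, Prl, Agrp and Ghrh, were among its 31276 gene symbols. RNA of mouse brain was sequenced with an mRNA library kit in 3 KO and 3 WT samples, all of strain C57BL/6 at postnatal day 14. The KO label gives PRMT5, an arginine methyltransferase, and olig2cre, a Cre recombinase named for the Olig2 gene, which oligodendrocyte precursors and some neural progenitors express. Cells without a history of Cre keep the gene. WT samples are labelled wild-type, with no statement on whether they carry Cre or a modified Prmt5 allele, or on whether each sample is 1 animal. The p-values hence cover only the variation among these 6 samples, which could be technical in part.

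Neurons of the hypothalamus make most of these hormones. Magnocellular neurons send oxytocin and vasopressin to the posterior pituitary, and smaller neurons release factors such as thyroliberin and growth hormone releasing hormone toward the anterior pituitary. Other hypothalamic neurons use melanin-concentrating hormone, orexin, agouti-related peptide and products of proopiomelanocortin within the brain, in the control of feeding and arousal. Growth hormone and prolactin are made by the anterior pituitary itself. Each is cut from a longer precursor, or secreted after removal of a signal peptide, so the RNA measured here is that of the precursor.

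Oxt and Avp are neighbours that arose from 1 ancestral gene, and their sequences are shown because both carried the largest differences and because their reads can be confused. On mm10, Oxt lies at chr2:130576173-130577054 on the plus strand and Avp at chr2:130580620-130582554 on the minus strand, each with 3 exons, tail to tail with 3566 bases between their ends. The coding bases of the mature hormones, from GENCODE release M21 transcripts, read as follows, 5′ to 3′, with the codons that differ in capitals. They lie at chr2:130576267-130576293 for Oxt and chr2:130582446-130582472 for Avp.
Oxt: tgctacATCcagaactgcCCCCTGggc
Avp: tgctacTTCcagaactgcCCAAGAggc
Further downstream both transcripts code for a neurophysin, the carrier protein of the hormone. There the transcripts aligned over 297 bases at 91.9% identity, and they shared this identical stretch of 127 bases, of which 125 lie at chr2:130576591-130576715 in Oxt and chr2:130581133-130581257 in Avp.
Shared stretch: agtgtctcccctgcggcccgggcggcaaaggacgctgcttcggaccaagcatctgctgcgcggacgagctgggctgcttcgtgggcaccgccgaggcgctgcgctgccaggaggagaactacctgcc
Reads were 150 bases long and paired, and how the counting treated reads that fit both genes is not given in the sources used here, so the counts of Oxt and Avp may share reads.

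Trh, at chr6:92242061-92244650 on the minus strand of mm10, encodes a precursor that holds several copies of thyroliberin. A search of its longest open reading frame found 5 copies flanked by pairs of basic residues. Their coding bases are shown because they make up the hormone of the gene that was called below, with the positions that vary among the copies in capitals.
Trh copy 1: cagcaTccGggc
Trh copy 2: cagcaCccTggc
Trh copy 3: cagcaCccTggc
Trh copy 4: cagcaTccAggc
Trh copy 5: cagcaTccTggc
Copy 1 lies at chr6:92243094-92243105 and copy 5 at chr6:92242716-92242727.

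The 250 bases before the transcription start of Oxt, Avp and Trh are shown because these genes had the smallest p of the 10. They come from RefSeq on GRCm38.p6, which held an entry for every gene described here except Gh and Agrp. Capitals mark matches, on either strand, to TATAAA (the TATA box), CACGTG (an E-box, bound by clock and other basic helix-loop-helix factors), AGGTCA (a core motif of nuclear receptors), TGACG (the core of a cyclic AMP response element) and CCAAT.
Oxt, chr2:130575919-130576168, plus strand: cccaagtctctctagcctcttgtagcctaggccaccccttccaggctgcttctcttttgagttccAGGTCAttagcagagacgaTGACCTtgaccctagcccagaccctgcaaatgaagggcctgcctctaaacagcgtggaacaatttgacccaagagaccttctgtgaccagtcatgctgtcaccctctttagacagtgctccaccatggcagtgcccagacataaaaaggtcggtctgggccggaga
Avp, chr2:130582589-130582838, minus strand: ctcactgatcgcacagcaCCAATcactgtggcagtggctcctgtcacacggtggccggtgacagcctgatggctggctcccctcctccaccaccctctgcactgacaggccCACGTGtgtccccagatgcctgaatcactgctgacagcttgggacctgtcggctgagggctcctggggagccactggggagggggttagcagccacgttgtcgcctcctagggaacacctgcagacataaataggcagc
Trh, chr6:92244651-92244900, minus strand: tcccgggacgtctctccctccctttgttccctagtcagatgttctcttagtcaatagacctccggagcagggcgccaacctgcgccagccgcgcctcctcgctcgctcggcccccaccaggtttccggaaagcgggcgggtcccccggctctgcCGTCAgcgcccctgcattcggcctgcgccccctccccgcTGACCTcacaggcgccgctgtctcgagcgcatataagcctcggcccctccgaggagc
The Oxt window held AGGTCA at 185 bases before the start and its reverse complement at 166 bases. The Avp window held CCAAT at 232 bases and the palindromic E-box at 139 bases before the start. The Trh window held the reverse complement of TGACG at 96 bases and that of AGGTCA at 57 bases before the start. Of all 32851 RefSeq promoter windows of that length, 14% held AGGTCA, 6.02% CACGTG, 17.8% TGACG, 33.8% CCAAT and 12.4% TATAAA, and no 2 matches in the 3 windows overlapped. A match is a string of letters and not a measured binding site.

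The libraries held 15089140 to 16365802 counts in KO and 15219817 to 16872925 counts in WT, and 1 count was worth 0.0608 to 0.0635 CPM in KO and 0.0602 to 0.0676 CPM in WT. CPM, the usual depth-scaled unit of read counts, was computed with TMM factors, which correct for library composition. The synaptic gene Snap25 stood at 1517 ± 172 CPM in KO and 1454 ± 66.0 CPM in WT (SD, n = 3 each). Prmt5 itself stood at 68.2, 68.4 and 81.6 CPM in KO replicates 1 to 3 and at 90.8, 90.4 and 91.8 CPM in WT replicates 1 to 3, with no overlap (edgeR quasi-likelihood test, Benjamini-Hochberg adjusted p = 0.232, and 0.0379 with the replicate number as a block). Gabra6, which marks granule cells of the cerebellum, had 80.0 and 22.1 CPM in KO replicates 1 and 3, 63.8 CPM in WT replicate 1 and no count in the other 3 libraries, so cerebellar transcripts were present in some libraries of each group. Xist, which female cells transcribe, passed 5 CPM in KO replicates 1 and 2 and in WT replicate 2, and the numbers of such libraries differed between the groups.

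All 8 hypothalamic hormone genes had a higher mean level in KO brain, and the 2 pituitary hormone genes had no count. Trh rose 1.94-fold, the one call among the 10 genes in the fit of all libraries. Oxt and Avp had fitted fold changes of 5.99 and 4.39 and missed the threshold of 0.05 with adjusted p of 0.0517 and 0.0646 in edgeR. They were called with the replicate block and by DESeq2, but not with a term for Xist or by limma-voom. Across all 16592 genes tested, 0.241% were called as higher in KO and 1.2% in either direction. The replicate block and DESeq2 each called 3 of the 10 hormone genes, where they called 1.03% and 0.472% of all genes tested as higher in KO. An unadjusted p under 0.05 was reached by 5 of the 10 and, in the same direction, by 4.4% of genes. Of the 10 genes 8 had a higher mean in KO, and the other 2 were at 0 throughout; 52.3% of the genes tested had a positive log2 fold change. The KO libraries were all above the WT libraries for 5 of the 10, namely Avp, Oxt, Trh, Pomc and Agrp, against 8.02% of the genes tested, and for 0 of the 10 were they all below, against 7.99%. The 7 genes that passed the filter on low counts had a median log2 fold change of 1.26, against 0.01 over all genes tested. The hormone genes were chosen with earlier results of these data known, so this contrast is a description and not a test. Oxt passed the filter through all KO libraries and 1 WT library, and Avp through all KO libraries and 2 WT libraries. Both genes hence entered that median through the group where they are high, and these 7 do not stand for all 10. RNA of brain tissue cannot tell more cells of a type from more RNA per cell.

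**Figure D1:**
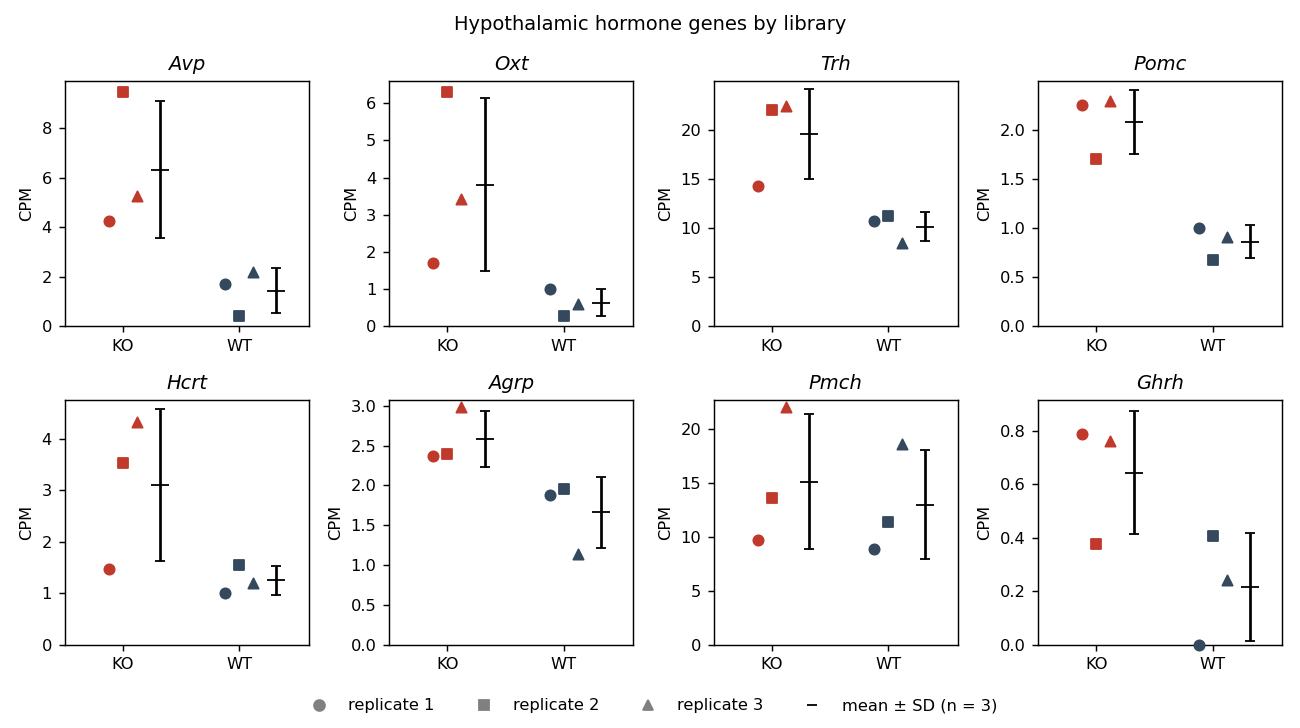
Level of each hormone gene with any count, in CPM, in the KO (left) and WT (right) libraries, with a marker for each replicate number and the mean ± SD of 3 libraries beside each group. KO libraries are all above WT libraries for Avp, Oxt, Trh, Pomc and Agrp, and the groups overlap for Hcrt, Pmch and Ghrh.

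Oxytocin, the hormone of birth, milk release and social behaviour, is encoded by Oxt. It had 28, 100 and 54 counts in KO replicates 1 to 3, against 16, 4 and 10 counts in WT replicates 1 to 3. In CPM these were 1.70, 6.30 and 3.43 in KO and 0.999, 0.270 and 0.602 in WT. The groups did not overlap, with KO replicate 2 highest and WT replicate 2 lowest of all 6 libraries. The counts were small: the exact 95% Poisson interval was 81.4 to 122 counts in KO replicate 2 and 1.09 to 10.2 counts in WT replicate 2, which covers counting error only. Oxt averaged 3.81 ± 2.32 CPM in KO and 0.624 ± 0.365 CPM in WT (SD, n = 3 each). Its log2 fold change of 2.58 (SE 0.544) ranked 1 of the 16592 genes tested, while its p ranked 202 (edgeR quasi-likelihood test, Benjamini-Hochberg adjusted p = 0.0517). With the replicate block the log2 fold change was 2.44 and the adjusted p 0.00433 in edgeR, and DESeq2 gave an adjusted p of 0.000423.

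Vasopressin, made by Avp, retains water and, in the suprachiasmatic nucleus, takes part in daily rhythms. Avp had 70, 150 and 83 counts in KO replicates 1 to 3, against 27, 6 and 36 counts in WT replicates 1 to 3. The same order of libraries held at the ends, with KO replicate 2 highest (9.45 CPM) and WT replicate 2 lowest (0.406 CPM), and the groups did not overlap. Avp averaged 6.33 ± 2.75 CPM in KO and 1.42 ± 0.910 CPM in WT (SD, n = 3 each), and the log2 fold change was 2.13 (SE 0.467), rank 6 of the genes tested. Its edgeR adjusted p (Benjamini-Hochberg) was 0.0646, and 0.00268 with the replicate block. DESeq2 gave an adjusted p of 0.00031. Within libraries the count of Avp over that of Oxt was 2.5, 1.5 and 1.54 in KO replicates 1 to 3 and 1.69, 1.5 and 3.6 in WT replicates 1 to 3. In KO replicate 2 and WT replicate 2, the libraries with the highest and lowest sums of both genes (250 and 10 counts), that ratio was 1.5. In WT replicate 2 it rests on 6 and 4 counts, with exact 95% Poisson intervals of 2.20 to 13.1 and 1.09 to 10.2. The equal values therefore do not show a constant ratio.

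Leaving libraries out moved both genes. Without each library in turn the log2 fold change ran from 2.01 to 3.08 for Oxt and from 1.71 to 2.56 for Avp, always higher in KO. Both were called without KO replicate 1 (edgeR adjusted p of 0.0109 for Oxt and 0.0354 for Avp), and neither was called without any of the other 5 libraries. Among the libraries without cerebellar transcripts, KO replicate 2 against WT replicates 2 and 3, the log2 fold change was 3.80 for Oxt and 2.83 for Avp. Among those with cerebellar transcripts, KO replicates 1 and 3 against WT replicate 1, it was 1.35 and 1.49. In each of these comparisons 1 group has a single library, whose variation is taken from the other group, and KO replicate 2 is also the library with the most of both genes. With a term for cerebellar transcripts in the fit of all libraries, where 0.277% of genes were called as higher in KO, both genes were called (edgeR adjusted p of 0.0274 for Oxt and 0.0263 for Avp). With a term for Xist neither was called (edgeR adjusted p of 0.119 for Oxt and 0.122 for Avp). Neither was called by limma-voom (adjusted p of 0.157 and 0.0940).

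Trh encodes thyroliberin, which drives release of thyrotropin and is also made by neurons outside the hypothalamus. It had 235, 350 and 353 counts in KO replicates 1 to 3, against 171, 166 and 140 counts in WT replicates 1 to 3. KO replicate 1 was the lowest KO library at 14.3 CPM and WT replicate 2 the highest WT library at 11.2 CPM, so the groups did not overlap. Trh averaged 19.6 ± 4.59 CPM in KO and 10.1 ± 1.48 CPM in WT (SD, n = 3 each). The log2 fold change was 0.95 (SE 0.194) (edgeR quasi-likelihood test, Benjamini-Hochberg adjusted p = 0.0438, and 0.00166 with the replicate block). The call held without KO replicate 1 (adjusted p = 0.00637). It was lost without KO replicate 2 (0.196), KO replicate 3 (0.182), WT replicate 1 (0.116), WT replicate 2 (0.129) or WT replicate 3 (0.256), with a log2 fold change between 0.83 and 1.14 over the 6. With a term for Xist the edgeR adjusted p was 0.0942 and the log2 fold change 0.97.

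**Figure D2:**
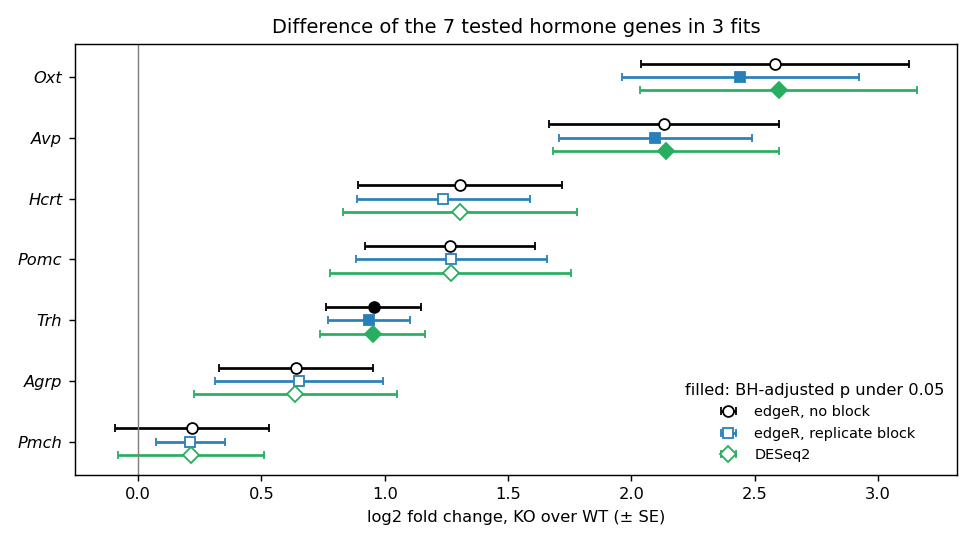
Log2 fold change of KO over WT with its SE for the 7 hormone genes that passed the filter on low counts, in edgeR without and with the replicate block and in DESeq2. Filled symbols have a BH-adjusted p under 0.05: Trh in all 3 fits, and Oxt and Avp in the fits with the block and with DESeq2.

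Neurons of the arcuate nucleus that set appetite make Pomc, whose products curb feeding, and Agrp, whose product blocks the same melanocortin receptors. Pomc stood at 2.25, 1.70 and 2.29 CPM in KO replicates 1 to 3 and at 0.999, 0.676 and 0.902 CPM in WT replicates 1 to 3. The groups did not overlap and the spread within each was narrow. The log2 fold change was 1.26 (SE 0.344) and the edgeR adjusted p (Benjamini-Hochberg) 0.176, and 0.0838 with the replicate block, so Pomc was called in neither fit. Agrp stood at 2.37, 2.39 and 2.99 CPM in KO and at 1.87, 1.96 and 1.14 CPM in WT, also without overlap. Its log2 fold change was 0.64 (SE 0.314), with an edgeR adjusted p of 0.546. In GENCODE M21 the Agrp locus spans chr8:105566698-105637393 on the minus strand and shares 114 exonic bases with Ctcf on the opposite strand, a gene at 59.2 ± 3.40 CPM in KO and 60.9 ± 4.85 CPM in WT (SD, n = 3 each). Reads of Agrp and Ctcf may therefore be shared if the counting did not use strand. Gm5914, a long noncoding RNA gene on the strand of Agrp, shares 114 exonic bases as well, so its reads could be shared with either setting.

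The lateral hypothalamus holds the neurons of Hcrt, the orexin precursor that sustains wakefulness, and of Pmch, the precursor of melanin-concentrating hormone. Hcrt stood at 1.46, 3.53 and 4.32 CPM in KO replicates 1 to 3 and at 0.999, 1.55 and 1.2 CPM in WT replicates 1 to 3. KO replicate 1 lay below WT replicate 2, so the groups overlapped. Its log2 fold change was 1.31 (SE 0.413) with an edgeR adjusted p (Benjamini-Hochberg) of 0.278, and without KO replicate 1 it was 1.65 with an adjusted p of 0.0340. Pmch stood at 9.67, 13.6 and 22 CPM in KO and at 8.87, 11.4 and 18.6 CPM in WT. The groups overlapped almost throughout, and in each the library with replicate number 3 was highest. The log2 fold change of Pmch was 0.22 (SE 0.311, edgeR adjusted p 0.857), and its sign turned without KO replicate 3 (-0.16), where WT replicate 3 was kept. Within each of the same-numbered pairs Pmch was higher in the KO library, and with the replicate block the log2 fold change was 0.21 (edgeR adjusted p 0.498). Pmch shares 435 of its 749 exonic bases with Parpbp on the opposite strand, which stood at 5.90, 11.3 and 14.8 CPM in KO and at 6.00, 8.79 and 13.8 CPM in WT. The order of the libraries was nearly that of Pmch, and reads of both may be shared.

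Ghrh, the releasing hormone of growth hormone, had 13, 6 and 12 counts in KO replicates 1 to 3 and 0, 6 and 4 counts in WT replicates 1 to 3. It did not pass the filter on low counts. With no filter, where edgeR called 0.249% of genes as higher in KO, its log2 fold change was 1.56 and the adjusted p 0.672, and KO replicate 2 and WT replicate 2 had the same count. Gh and Prl, the growth hormone and prolactin genes, had 0 counts in all 6 libraries, which allows up to 0.191 CPM in any KO library and up to 0.203 CPM in any WT library (3 counts, the one-sided 95% limit, counting error only). Of 12 further genes of the anterior pituitary, 0 passed the filter. Cga and Fshb, which encode the shared subunit of the glycoprotein hormones and the beta subunit of follicle-stimulating hormone, had no count in any library. The 12 genes together summed to 1.02 to 1.83 CPM in KO and 0.421 to 0.937 CPM in WT. Pou1f1, the transcription factor of cells that make growth hormone and prolactin, had at most 0.252 CPM in KO and 0.135 CPM in WT. Lhb, the beta subunit gene of luteinizing hormone, stood at 0.426, 1.13 and 0.254 CPM in KO and at 0, 0.135 and 0.120 CPM in WT. Lhb, which did not pass the filter, was 1 of the 12 genes and the only one with all KO libraries above the WT libraries. Among all genes tested that share was 8.02%, so 1 of 12 is near it. The part of pituitary tissue in the Pomc values was not tested.

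Set per kilobase of exonic length, the mean level in KO ran in the order Pmch (20.1 CPM per kb), Trh (14.2), Avp (11), Oxt (7.10), Hcrt (4.14), Agrp (2.55), Pomc (1.58) and Ghrh (0.964). In WT the order was Pmch (17.3 CPM per kb), Trh (7.30), Avp (2.46), Hcrt (1.67), Agrp (1.64), Oxt (1.16), Pomc (0.652) and Ghrh (0.322). By mean ± SD, Agrp stood apart from Pomc and Pomc from Ghrh in KO, and Pmch from Trh and Trh from Avp in WT, while the other neighbours in each order overlapped. Lengths are from GENCODE and not from the authors' gene models. Oxt stood above Hcrt and Agrp in KO and below both in WT.

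The genes did not share 1 ranking of libraries. KO replicate 2 was highest for Avp and Oxt, KO replicate 3 for Pmch, Hcrt, Trh, Pomc and Agrp, and KO replicate 1 for Ghrh. The lowest library was WT replicate 2 for Avp, Oxt and Pomc, WT replicate 1 for Pmch, Hcrt and Ghrh, and WT replicate 3 for Trh and Agrp. From the lowest to the highest library the level differed 23.3-fold for both Avp and Oxt, and 2.48-fold to 4.32-fold for the other 5 tested genes. Within KO alone the highest library was 3.70 times the lowest for Oxt, 2.22 for Avp and 1.57 for Trh, and within WT it was 3.70 times for Oxt, 5.34 for Avp and 1.33 for Trh.

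Of the 21 pairs of tested hormone genes, all but 1 held a gene whose groups did not overlap, and for those no correlation over the 6 libraries is given, since it would mostly restate the group difference. For the pair left, Pmch and Hcrt, Pearson's r of log2(CPM + 0.5) was 0.60 (exact permutation p = 0.181, adjusted over the 21 pairs 0.271) and Spearman's rho 0.66 (exact permutation p = 0.175, adjusted 0.283). Without the 2 libraries farthest from the median of Pmch, r was 0.95 over 4 libraries.

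**Figure D3:**
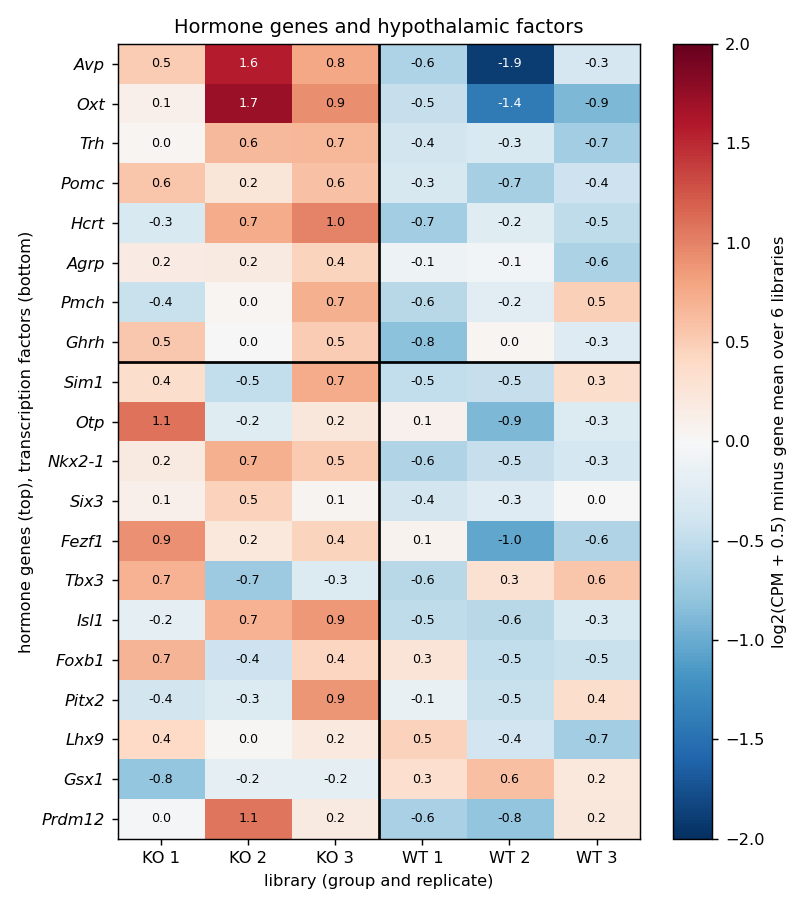
Deviation of log2(CPM + 0.5) from each gene's mean over the 6 libraries, for the 8 hormone genes with counts (top) and the 12 tested hypothalamic transcription factor genes (bottom), with KO libraries left of WT libraries. Avp and Oxt stand highest in KO replicate 2 and lowest in WT replicate 2, while Pmch and Hcrt stand highest in KO replicate 3.

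Transcription factor genes that mark hypothalamic territories had mostly positive log2 fold changes, though 0 of 12 tested were called by edgeR without the block, 0 by DESeq2, and 5 had an unadjusted p under 0.05, of which 4 were higher in KO (4.4% of all genes tested) and 1, Gsx1, was lower. With the replicate block 1 was called, Isl1, which marks arcuate neurons among others, at 6.30 ± 2.35 CPM in KO and 2.94 ± 0.323 CPM in WT (SD, n = 3 each, edgeR adjusted p = 0.0174). Of the 12, 10 had positive values and the median log2 fold change was 0.71, against 0.01 over all genes tested. This list too was chosen with earlier results of these data known. Nkx2-1, which patterns the ventral hypothalamus, stood at 2.31, 3.53 and 3.05 CPM in KO and at 1.12, 1.28 and 1.44 CPM in WT, without overlap (log2 fold change 1.2, SE 0.305, edgeR adjusted p = 0.137). Fezf1, a gene of the ventromedial nucleus, had a value of 1.6 (SE 0.569) and Six3, also expressed in striatum, 0.43 (SE 0.160). Gsx1, a homeobox gene that mouse Ghrh neurons need, stood at 0.426, 0.882 and 0.889 CPM in KO and at 1.5, 1.89 and 1.32 CPM in WT, without overlap (log2 fold change -1.09, SE 0.408, edgeR adjusted p = 0.393). Otp and Sim1, needed for the neurons that make oxytocin, vasopressin and thyroliberin, had values of 1.29 (SE 0.646) and 0.77 (SE 0.669), and both were highest outside KO replicate 2, the library with the most Oxt and Avp. Summed over the 20 genes of this list, the level was 50.7 to 51.3 CPM in KO and 31.5 to 37.5 CPM in WT. The part of hypothalamic tissue taken with each brain in the differences of the hormone genes was not tested.

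Of 17 other peptide precursors found in the hypothalamus, 10 were tested and 0 were called in the fit without the block, with 1 at an unadjusted p under 0.05. Their median difference was 0.31 on the log2 scale. That gene, Nts, the neurotensin precursor, stood at 17.8, 23.1 and 17 CPM in KO and at 12, 11.8 and 13.1 CPM in WT, without overlap. Its log2 fold change was 0.65 (SE 0.151), with an edgeR adjusted p of 0.0903, of 0.0154 with the replicate block and of 0.0253 in DESeq2. Gal, the galanin precursor, had a value of 0.97 (SE 0.446), and Crh, the releasing hormone of the stress axis, 0.51 (SE 0.248), both with overlapping groups. Vip, abundant in cortical interneurons too, had a value of -0.27 (SE 0.135), with every KO library below every WT library. Sst and Npy, which are abundant outside the hypothalamus, stood at 0.17 (SE 0.138) and 0.07 (SE 0.175).

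Receptors and peptidases that act on these hormones gave no call. Of 16 genes 14 were tested, 0 were called by edgeR with or without the block or by DESeq2, and 1 had an unadjusted p under 0.05. Their median was 0.09 on the log2 scale. Avpr1a, a vasopressin receptor of brain, stood at 1.09, 2.14 and 2.16 CPM in KO and at 0.749, 0.541 and 0.963 CPM in WT, without overlap (log2 fold change 1.24, SE 0.415, edgeR adjusted p = 0.317). Oxtr, the oxytocin receptor gene, had a value of -0.06 (SE 0.155), Mchr1 -0.14 (SE 0.171) and Hcrtr2 -0.06 (SE 0.223). Trhr stood at 0.34 (SE 0.177). Enzymes and granule proteins that peptide hormones share gave no call either, with 0 of 14 called by edgeR or DESeq2, 0 at an unadjusted p under 0.05 and a median of 0.08. Pcsk1, a convertase of hormone precursors, had a value of -0.29 (SE 0.155) and Chga, a granule protein gene, 0.19 (SE 0.0997). Tanycytes, the glia that line the floor of the ventricle, gave 0 calls among 6 tested markers by edgeR or DESeq2, 0 at an unadjusted p under 0.05, and a median of 0.15.

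Genes of thyroid hormone and corticosteroid handling and response were measured in the same brain RNA as Trh and Crh. Hormone levels were not measured, and RNA of brain tissue does not tell which cells hold these transcripts. Activity of the thyroid and stress axes was not tested. Of 9 genes of thyroid hormone transport, conversion and response, 8 had negative log2 fold changes (median -0.27, and -0.11 with the term for cerebellar transcripts), and 0 were called in the fit without the block, with 4 at an unadjusted p under 0.05. DESeq2 called 1 of the 9, and in either direction 315 of the 15689 genes it tested. The share of all genes lower in KO at that unadjusted p was not computed, so the 4 have no background beside them. Of all genes tested, 52.3% had a positive log2 fold change. Dio2, which makes active thyroid hormone, stood at 81.8, 77.4 and 77.3 CPM in KO and at 90.6, 109 and 112 CPM in WT (log2 fold change -0.40, SE 0.0993, edgeR adjusted p = 0.124, and 0.0156 with the replicate block). Klf9 (-0.27, SE 0.0994) and Hr (-0.31, SE 0.120), both induced by thyroid hormone, came with edgeR adjusted p of 0.390 and 0.419. Of 10 genes of corticosteroid and corticotropin-releasing hormone signalling, 0 were called without the block and 2 with it, Sgk1, a kinase gene induced by corticosteroids, and Crhr2, a receptor of the urocortins. DESeq2 called 2 of the 10. With the block, 566 of the 16592 genes tested were called in either direction. Sgk1 stood at 36.2, 37.1 and 34.4 CPM in KO and at 45.9, 48.1 and 51.9 CPM in WT (log2 fold change -0.44, SE 0.0972, edgeR adjusted p = 0.0692, and 0.0143 with the block). Crhr2 stood at 2.37, 3.84 and 3.56 CPM in KO and at 0.999, 1.22 and 1.5 CPM in WT (1.38, SE 0.319, edgeR adjusted p = 0.0841, and 0.0183 with the block).

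**Figure D4:**
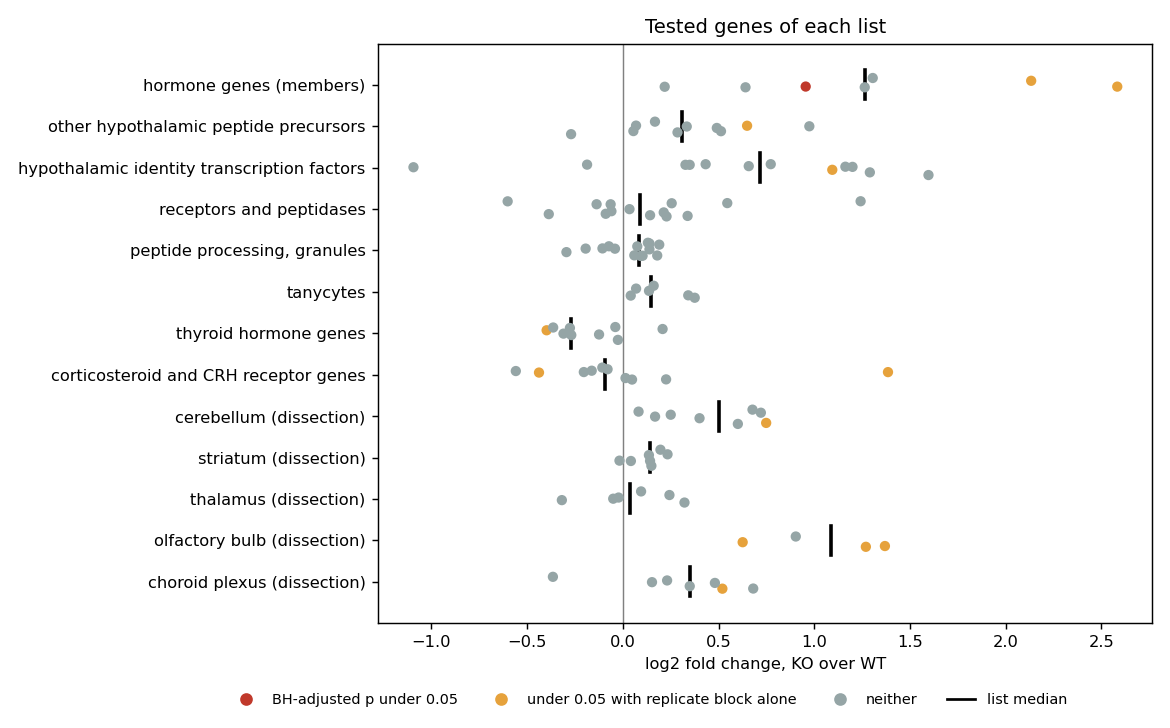
Log2 fold change of KO over WT for each tested gene, by list, with the list median as a bar and colour for a BH-adjusted p under 0.05 in edgeR without the block (red) or with the replicate block alone (orange). The hormone genes have a median of 1.26, the olfactory bulb genes 1.09, the hypothalamic transcription factors 0.71, the cerebellar genes 0.50 and the peptide processing genes 0.08.

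Markers of other regions moved between libraries too. The 5 genes of the olfactory bulb summed to 232 to 260 CPM in KO and 114 to 203 CPM in WT. Among them Doc2g, of mitral and tufted cells, stood at 4.80, 17.1 and 5.02 CPM in KO and at 3.50, 4.19 and 3.49 CPM in WT, highest in KO replicate 2, where Oxt and Avp were also highest. Of the 4 tested, 0 were called without the block and 3 with it, Eomes, Doc2g and Calb2, each higher in KO (edgeR adjusted p of 0.00111, 0.0261 and 0.0016), with a median of 1.09. DESeq2 called 1 of the 4, and 3 of the 4 had an unadjusted p under 0.05 in edgeR without the block. All 4 were higher in KO, and 4.4% of all genes tested had such a p and were higher in KO. The 8 cerebellar genes summed to 52.4 to 531 CPM in KO and 33.7 to 513 CPM in WT, with 0 called without the block and 1 with it, Gdf10, and none at an unadjusted p under 0.05 without the block. All 8 had positive log2 fold changes, with a median of 0.50, and of -0.19 with the term for cerebellar transcripts. Of 7 hindbrain genes 1 was tested and 0 called by edgeR or DESeq2, and none had an unadjusted p under 0.05. Those 7 genes summed to 21.1, 0 and 2.16 CPM in KO replicates 1 to 3. In WT replicates 1 to 3 the sums were 17.2, 0 and 0 CPM, and the libraries at 0 were those with no Gabra6 count. Striatal genes had a median of 0.14 over 7 tested and thalamic genes 0.04 over 6, with 0 called by edgeR with or without the block or by DESeq2, and 0 and 1 at an unadjusted p under 0.05. The 7 choroid plexus genes had a median of 0.35, with 0 called without the block and 1 with it, Ttr, which encodes a thyroid hormone carrier, at 675, 923 and 511 CPM in KO and 391.8, 565 and 514 CPM in WT. Of the 7 choroid plexus genes, 6 had positive log2 fold changes and 2, counted in either direction, had an unadjusted p under 0.05 without the block. The part of any of these regions in the hormone gene values was not tested.

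For each tested hormone gene the genes with the most similar pattern over the 6 libraries, by Pearson's r of log2(CPM + 0.5) among the 15715 genes that averaged 1 CPM or more, are given as a description. They were Incenp, Rab26os and Atp5l for Avp (r of 0.994, 0.991 and 0.989), C4b, Ddx41 and Amigo2 for Oxt (0.996, 0.991 and 0.990), and UCP4, Nnat and Oplah for Trh (0.995, 0.992 and 0.991). For Pomc they were Celf6, Ranbp1 and Gbp7, for Agrp Rcn3, Tdrd3 and Aldh16a1, for Hcrt Tmem186, Tomm40 and Slc25a3, and for Pmch Pdcd4, Pgap2 and Zfp317, all with r between 0.979 and 0.998. Between 1.07% and 2.28% of the genes compared had an r of at least 0.9 with a given hormone gene.

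**Figure D5:**
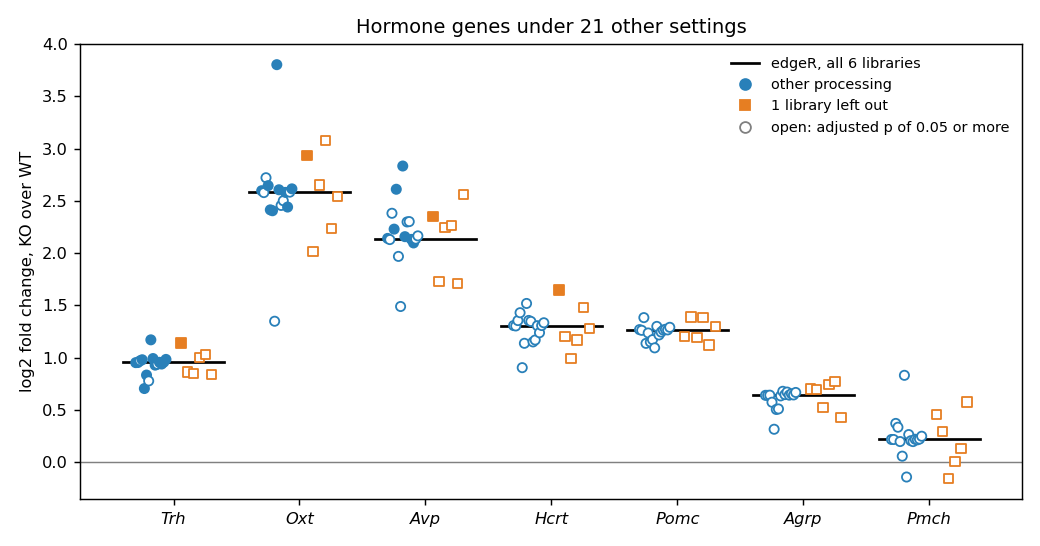
Log2 fold change of KO over WT of each tested hormone gene with all 6 libraries (line), under 15 other ways of processing (circles) and without each library in turn (squares), filled where the BH-adjusted p was under 0.05. All values of Trh, Oxt, Avp, Hcrt, Pomc and Agrp lie above 0, and those of Pmch fall on both sides of it.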

How the data were processed

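Brains were taken at postnatal day 14, RNA was extracted with Trizol and libraries followed the Illumina TruSeq mRNA protocol with 150 bp paired reads, per the labels' protocols. The tools named are STAR 2.3.0e, featureCounts 1.5.0, Trimmomatic 0.32, FastQC 0.11.2 and DESeq2, with build mm10, per the submitters' processing notes. The authors deposited whole-number counts per gene over exons and a normalized signal, which equalled the counts divided by 1 factor per library.

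All tests here started from the deposited counts. After filterByExpr (at least 10 counts in a library of median size, in 3 libraries), 16592 genes were tested for KO over WT with edgeR 4.0.16 (glmQLFit, glmQLFTest, TMM factors, no covariate, 4 residual degrees of freedom) in R 4.3.3. A gene was called when its adjusted p (Benjamini-Hochberg, over all genes tested) was under 0.05. The procedure was tested on simulated data. SE is the log2 fold change over the square root of the F statistic. limma 3.58.1 and DESeq2 1.42.0 served as alternatives.

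The hormone genes, the 15 other gene lists and the alternatives were chosen with earlier results of these data known. All hormone genes are named. The rule for the lists took the called genes and up to 4 with the smallest p, of which not all are named; Snap25, Gsx1, Otp, Sim1, Sst, Npy, Oxtr, Mchr1, Hcrtr2, Pou1f1, Lhb, Gdf10, Doc2g and Ttr, with the pituitary genes at 0, were named after their values were seen. Genes of similar pattern were the 3 with the highest r per hormone gene, predicted genes left out. Drd1 was matched as Drd1a. Some results on single genes of these lists are not reported here. Coordinates are from GENCODE M21, which held 22559 of the symbols.

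Chi-square per degree of freedom between libraries of 1 group was 6.75 to 27.4, above counting noise, so none was a duplicate. The labels number the replicates 1 to 3 in KO and in WT without saying what is shared. Libraries of the same number had correlations of 0.351, 0.334 and 0.177 between their deviations from their group's mean. All exceed 0.1, so the numbers were taken as pairs, from the data alone. Libraries of different number ran from -0.381 to 0.1002, and the highest, KO replicate 2 with WT replicate 3, also passed 0.1. Same-numbered libraries could differ in Gabra6 (22.1 CPM in KO replicate 3, 0 in WT replicate 3). They could also differ in Xist (634 CPM in KO replicate 1, 0.25 CPM in WT replicate 1). The pairing is hence uncertain, and calls made with the block rest on it. The blocked fit (replicate number as a block) is given where it changed a call, and for some genes and lists where it did not.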

Additional observations from a re-analysis of the deposited data

How the results depend on the processing

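The direction of Trh, Oxt, Avp, Hcrt, Pomc and Agrp was the same under all 21 alternatives, of which 2 (exon length offsets, and the cerebellum term with the replicate block) were chosen after seeing the data. Trh was called in 13 of them; with the Xist term its log2 fold change was 0.97 and with limma-voom 0.94, and among libraries with cerebellar transcripts alone 0.78, each without a call. Without each library in turn it ran from 0.83 to 1.14. Oxt gained a call with DESeq2 (2.60), the cerebellum term (2.65), that term with the replicate block (2.41), length offsets (2.40), library totals alone (2.61), no filter (2.58), upper-quartile scaling (2.61) and the replicate block (2.44); without each library in turn it ran from 2.01 to 3.08. Avp gained one with DESeq2 (2.14), the cerebellum term (2.23), that term with the replicate block (2.61), library totals alone (2.16), no filter (2.13) and the replicate block (2.10), and ran from 1.71 to 2.56. Libraries without cerebellar transcripts alone gave 3.80 for Oxt, 2.83 for Avp and 3 called hormone genes, but from 1 KO library, the highest for both, so these calls measure no variation within KO and add no support. Hcrt ran from 0.99 to 1.65 without each library. Pmch turned to -0.14 among libraries without cerebellar transcripts and to -0.16 without KO replicate 3; without each library it ran from -0.16 to 0.57. The cause of these shifts was not tested.

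Of the hormone genes, 3 were called with DESeq2, the cerebellum term, that term with the replicate block, the replicate block, library totals alone and no filter, 2 with length offsets and upper-quartile scaling, 0 with the Xist term, limma-voom and libraries with cerebellar transcripts alone, and 0 to 4 without each library in turn. Over all genes, 199 were called; DESeq2 called 315, the Xist term 129, the replicate block 566, that block with the cerebellum term 535 and libraries without cerebellar transcripts alone 1254, and leaving out each library gave 100 to 305. Of the calls, 20.1% were higher in KO, against 30.2% with the replicate block, 44.3% among libraries without cerebellar transcripts, 11.6% with the Xist term and 8.82% to 19.8% without each library in turn. The 40 genes called as higher in KO became 9 without WT replicate 3, 11 without WT replicate 2, 12 without KO replicate 2 and 15 with the Xist term. The replicate block changed the calls of Oxt and Avp and of no other hormone gene. Counts of 4 to 100 for Oxt, 6 to 150 for Avp and 0 to 13 for Ghrh limit their precision.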
